A study of Drosophila melanogaster with 12 samples.

Results

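The transcripts described here are those whose signal was high in Drosophila melanogaster embryos at stages 9 to 11 and close to background at stages 13 to 15. They were chosen as the gene probe sets with an intensity above 200 on all 6 arrays of the earlier window and under 35 on all 6 arrays of the later one. A probe set is a group of short array probes read out as 1 value for a transcript. The limits were met by 3 of 13966 gene probe sets, 143353_AT, 148773_s_at and 153848_AT. The members were chosen by their intensities on all 12 arrays, so their difference between the windows is given as a description with no test. None of the 3 is paired with a gene by the table used here, and they are therefore called by their identifiers, with no function, position or sequence. In Affymetrix naming, the s in 148773_s_at marks probes that may detect several related transcripts.

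The study asked how early transcript levels respond to X-rays at stages 9 to 11, which the titles name sensitive, and at stages 13 to 15, which they name resistant. RNA from C-S strain embryos was hybridised to 12 arrays with 1 colour, 3 in each of 4 groups, and no genetic alteration or other treatment is named for any group. The groups were stage 9 to 11 controls, stage 9 to 11 embryos given X-rays, stage 13 to 15 controls and stage 13 to 15 embryos given X-rays. Collection of the treated embryos followed 15 to 20 minutes after X-rays, while no source used here gives the X-ray dose or the collection time of the controls. The labels do not say whether samples of a group were collected separately, so the spread behind the p-values may be technical in part.

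At stages 9 to 11 the germ band of the fly embryo is extended, neuroblasts leave the ectoderm, and many epidermal and neural precursors still divide. By stages 13 to 15 the germ band has retracted, the epidermis closes over the back, and most epidermal cells have stopped dividing and express the genes of their final type. A transcript whose signal is lost between these windows may be one whose gene is transcribed less and whose RNA has decayed. It may also be one made by cells that are no longer present, and these are not the only possibilities. In RNA from whole embryos, fewer cells of a type and less RNA per cell cannot be told apart.

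153848_AT was the probe set with the largest ratio of its lowest earlier to its highest later value, although by the ratio of group means in irradiated embryos and by the log2 difference in controls that of 148773_s_at was larger. In control embryos at stages 9 to 11 its intensity was 994.2, 988.8 and 449.7 on the arrays numbered 1, 2 and 3, and in irradiated embryos of that window it was 897.6, 935.2 and 903.9. At stages 13 to 15 it was 14.5, 13.3 and 14.6 in controls and 15.6, 12.6 and 8.1 in irradiated embryos. All 6 later values lay far below all 6 earlier ones, and within the earlier window control array 3 was lower than the other 5 arrays. The lowest earlier value was 28.8 times the highest later value. The group means were 811 ± 313 against 14.1 ± 0.723 in controls and 912 ± 20.1 against 12.1 ± 3.77 in irradiated embryos (SD, n = 3 each).

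148773_s_at was also near background on every later array. Its intensity at stages 9 to 11 was 547.6, 775.4 and 1114.1 in controls and 557.6, 421.9 and 1319.1 in irradiated embryos, on the arrays numbered 1, 2 and 3. At stages 13 to 15 it was 6.3, 25 and 11.3 in controls and 12.2, 8.9 and 5.6 in irradiated embryos. The windows did not overlap, and within the earlier window both arrays numbered 3 were the highest. The lowest earlier value was 16.9 times the highest later one. The group means were 812 ± 285 against 14.2 ± 9.68 in controls and 766 ± 484 against 8.90 ± 3.30 in irradiated embryos (SD, n = 3 each).

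143353_AT lay nearest to both limits of the rule. Its intensity at stages 9 to 11 was 285.0, 213.9 and 307.9 in controls and 332.9, 293.0 and 316.2 in irradiated embryos, on the arrays numbered 1, 2 and 3. At stages 13 to 15 it was 32.3, 19.0 and 18.9 in controls and 10.9, 12.8 and 32.1 in irradiated embryos. The windows were again apart on every array, and the lowest earlier value was 6.62 times the highest later one. The 2 highest later values, 32.3 and 32.1, came from different groups and array numbers. The group means were 269 ± 49.0 against 23.4 ± 7.71 in controls and 314 ± 20.0 against 18.6 ± 11.7 in irradiated embryos (SD, n = 3 each).

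**Figure D1:**
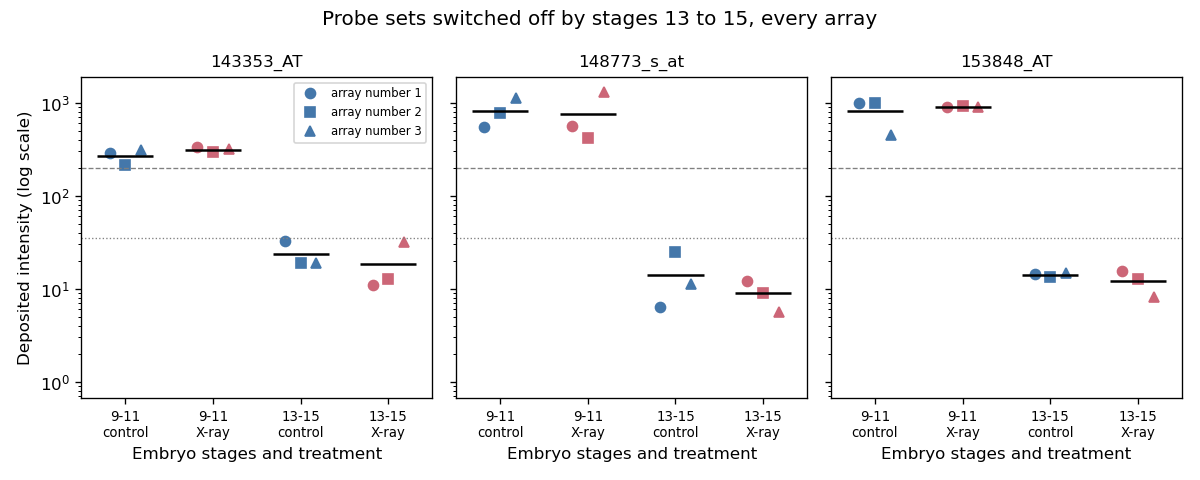
Deposited intensity (log scale) of the 3 probe sets on each of the 12 arrays, by embryo stage and treatment; points are single arrays, their shape gives the array number, horizontal bars are group means, and the dashed and dotted lines mark the limits of 200 and 35. Every earlier value lies between 213.9 and 1319.1 and every later value between 5.6 and 32.3.

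The size of the drop rests on signal close to background. Of the 18 later values of the 3 probe sets, 16 lay below 29.9, the 40th percentile of the whole table, which served as the filter for the tests. The ratio of the control group means, earlier over later, was 57.4 for 153848_AT, 57.2 for 148773_s_at and 11.5 for 143353_AT. With every later value below 29.9 raised to 29.9, the same ratios were 27.1, 27.2 and 8.76. In irradiated embryos the ratios were 75.4, 86.1 and 16.9, and 30.5, 25.6 and 10.3 with the later values raised in this way. The value of 29.9 is a percentile of the table and not a measured background, so these ratios too depend on that choice.

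On the log2(intensity + 13.3) scale, where 13.3 is the 25th percentile of the table, 153848_AT differed between the windows by −4.82 ± 0.27 in controls and by −5.20 ± 0.27 in irradiated embryos (later minus earlier, SE). The differences of 148773_s_at were −4.91 ± 0.38 and −4.97 ± 0.38, and those of 143353_AT were −2.95 ± 0.28 and −3.42 ± 0.28. Because the rule chose the members on this contrast, each SE only describes the fit, and no test is read from it. With 4 times that pseudocount the control differences were −3.60, −3.64 and −2.07 for 153848_AT, 148773_s_at and 143353_AT, and with 0.25 times it they were −5.46, −5.63 and −3.37.

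Very few transcripts met both limits. Of 1521 probe sets above 200 on all 6 earlier arrays, 3 (0.197%) were under 35 on all 6 later arrays, whereas 1019 (67.0%) were above 200 there too. The highest later value of those 1521 had a median of 450, with quartiles of 283 and 897. Counted from the other side, 3143 probe sets were under 35 on all later arrays, and the same 3 (0.0955%) were above 200 on all earlier ones. The reverse pattern, under 35 on all 6 earlier arrays and above 200 on all 6 later arrays, was met by 1 probe set, 149304_AT. It read 2.40 to 9.10 in controls and 5.40 to 15.0 in irradiated embryos at stages 9 to 11, against 358 to 516 and 277 to 545 at stages 13 to 15. Whether 3 against 1 differs was not tested, since the limits rather than the design set both counts.

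A further 5 probe sets missed the rule on exactly 1 array, and they were named here after their values had been seen. 143251_AT had a mean of 1015 on the earlier arrays and read 55.9 on later control array 1. 143252_AT had an earlier mean of 450 and read 47.1 on later X-ray array 2, where 143260_AT, with an earlier mean of 372, read 50.7. 155099_AT had an earlier mean of 260 and read 44.4 on later control array 2. 143183_AT stayed at or below 25.2 on all later arrays, but read 118 on earlier X-ray array 1 against a mean of 288 over the earlier arrays. Of the probe sets that met 1 limit in full, the nearest outside the other were 147068_at, whose lowest earlier value was 178 with at most 28.5 later, and 143575_AT, which was above 214 on the earlier arrays with at most 43.8 later. Just inside stood 143353_AT on both counts, at 213.9 and 32.3.

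**Figure D2:**
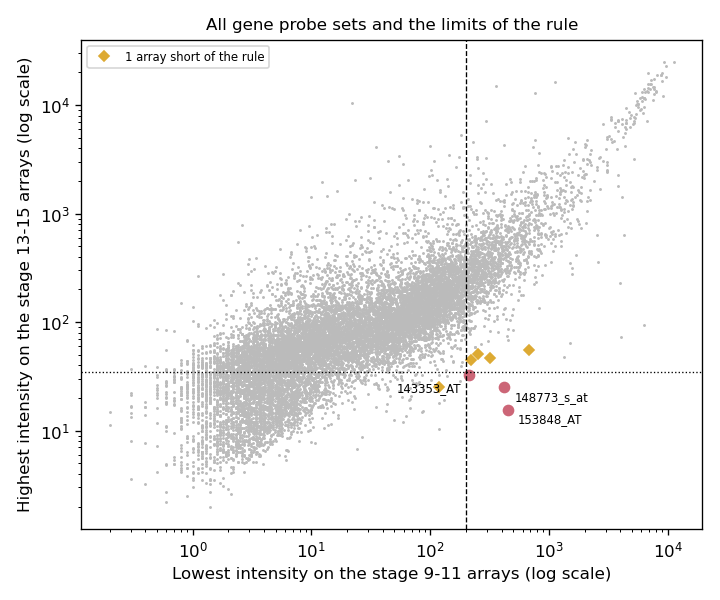
The lowest intensity on the stage 9 to 11 arrays (x axis, log scale) against the highest intensity on the stage 13 to 15 arrays (y axis, log scale) for all 13966 gene probe sets (grey); the dashed and dotted lines are the limits of 200 and 35. The 3 members (red, labelled) lie in the lower right corner, with 143353_AT in its upper left angle, and the 5 probe sets that missed the rule on 1 array are shown in yellow.

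The number of probe sets within the rule depended on its limits, while 153848_AT was a member under each of those tried. With a lower limit of 25 in place of 35 only 153848_AT was left, and with 50 there were 7 probe sets, including all 3. With an upper limit of 150 there were 4, and with 300 there were 2, 148773_s_at and 153848_AT. The count of switched-off and switched-on probe sets at the same limits was 7 against 1 at 200 and 50, 33 against 34 at 200 and 100, and 75 against 95 at 150 and 100. With an upper limit of 300, more were switched off at each lower limit from 20 to 100, with 15 against 8 at 100. Which direction had more probe sets thus changed with the lower limit at 150 and 200, but not at 300.

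**Figure D3:**
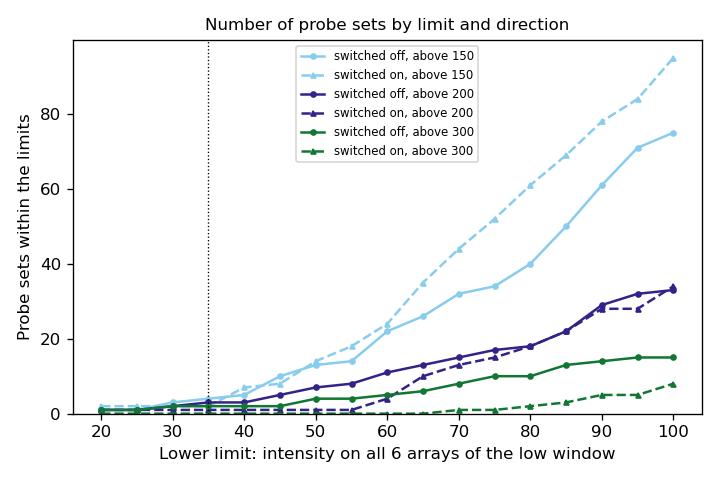
Number of probe sets (y axis) that were above 150, 200 or 300 on all 6 arrays of one window and below the lower limit (x axis, intensity) on all 6 arrays of the other; solid lines are switched off and dashed lines switched on by stages 13 to 15. At the limits of 200 and 35 (dotted line) the counts are 3 and 1, and at 200 and 100 they are 33 and 34.

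No probe set with a gene name met the rule. The gene table named 133 of the 13966 probe sets, and 37 of these were above 200 on all earlier arrays. Ordered by their highest later value, the lowest of the 37 was RPA2, a subunit of the complex that coats single-stranded DNA during replication and repair. Its intensity was 360 ± 51.7 in controls and 376 ± 65.7 in irradiated embryos at stages 9 to 11, and 61.6 ± 4.59 and 62.5 ± 1.59 at stages 13 to 15 (SD, n = 3 each). Its lowest earlier value was 4.58 times its highest later value, against 6.62 for 143353_AT. By the same order the next were CG3036, Rca1 (a regulator of cyclin A), RfC4 (a subunit of the clamp loader of DNA replication) and MED22 (a Mediator subunit), with highest later values of 117, 121, 130 and 211. The lists of genes for early segmentation and for DNA replication and the cell cycle were represented by name with 1 of 24 (en) and 3 of 44 genes, and the list for later differentiation with 2 of 25, and 0 of these were members. No gene on the lists of proneural and neuroblast, maternal and early zygotic, cell death, DNA damage or cell type marker genes had a named probe set, so neither the 3 transcripts nor the labelled stages could be checked against those markers.

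Irradiated and control embryos were also compared within each window. The rule was not built on this contrast, but it held both treatments to the same limits and so kept out probe sets whose treated and control arrays lay on different sides of them. It was met by 9 probe sets on the control arrays alone and by 7 on the X-ray arrays alone, against 3 on both. The counts of members in these comparisons are therefore fixed in part by the choice. At stages 9 to 11, 0 of the 3 probe sets passed an adjusted p of 0.05 in limma, where 0.0197% of the 10139 tested probe sets (2 of them) did. At an unadjusted p of 0.05 the count was also 0 of 3, against 312 of all tested. All 3 entered the test because they were high at stages 9 to 11. The values of control and irradiated embryos overlapped for each of the 3, where 7.14% of tested probe sets had no overlap.

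143353_AT differed by 0.23 ± 0.28 (log2, X-ray minus control, SE, adjusted p = 1.00), with a 95% confidence interval of −0.37 to 0.83. Within the arrays numbered 1, 2 and 3 the difference was 0.21, 0.43 and 0.04, so that it was positive in all of them. The fitted difference was smaller than its SE of 0.28, but that SE is unpaired and takes 1 spread from all 4 groups. The residual SD of 143353_AT was 0.319 over all groups and 0.196 within the earlier groups alone. 148773_s_at differed by −0.20 ± 0.38 (SE, adjusted p = 1.00), with an interval of −1.002 to 0.608 and differences of 0.03, −0.86 and 0.24 within the numbers. Its sign turned with single arrays: it was −0.67 without X-ray array 3, but 0.14 without X-ray array 2 and 0.06 without control array 3. 153848_AT differed by 0.25 ± 0.27 (SE, adjusted p = 1.00), with an interval of −0.32 to 0.82. Its differences within the numbers were −0.15, −0.08 and 0.99, and the positive sign came from control array 3, without which the difference was −0.12 (adjusted p = 1.00). The intervals leave room for a rise of up to 1.77-fold for 143353_AT and 153848_AT, and for a fall of up to 2.00-fold for 148773_s_at. In the other direction they reach a fall of 1.29-fold and 1.24-fold, and a rise of 1.52-fold. They rest on 1 spread per probe set over both windows. That spread was below the SD of the earlier window for 148773_s_at and 153848_AT, and above it for 143353_AT. As limits for the earlier window they are thus too narrow for the former and too wide for the latter. The median of the 3 differences was 0.23, beside 0.01 over all tested probe sets. When all 4 arrays numbered 3 were left out, which was added after seeing the data, it was −0.11.

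At stages 13 to 15 the rule held all values of the 3 probe sets under 35 in both treatments, and they had entered the test through the earlier window alone. That 0 of the 3 passed in limma (0 at an unadjusted p under 0.05), where 0% of tested probe sets did, was thus largely fixed by the rule, and nothing is read from it. As a description, 143353_AT differed by −0.24, 148773_s_at by −0.26 and 153848_AT by −0.12 (log2, X-ray minus control). Within the numbers, 143353_AT differed by −0.91, −0.31 and 0.50, 148773_s_at by 0.38, −0.79 and −0.38, and 153848_AT by 0.06, −0.04 and −0.38. No probe set kept 1 sign across the numbers here.

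**Figure D4:**
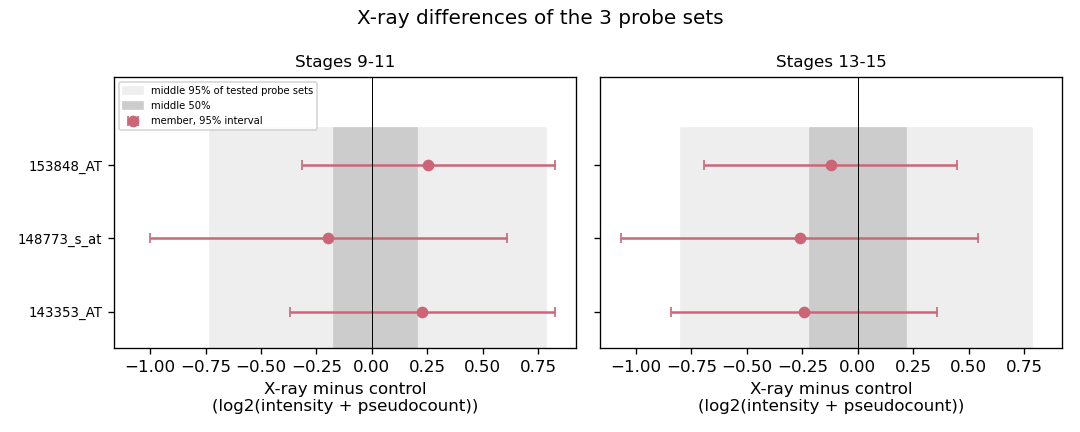
X-ray minus control difference (x axis, log2(intensity + pseudocount)) of the 3 probe sets at stages 9 to 11 and 13 to 15, with 95% confidence intervals from limma; shaded bands hold the middle 50% and 95% of the 10139 tested probe sets. All 6 intervals include 0, and the points lie between −0.26 and 0.25; at stages 13 to 15 the rule held the values of both treatments under 35.

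Whether X-rays acted differently in the 2 windows (earlier effect minus later effect) was also fitted directly. The later effect in this contrast is a difference between signals that the rule held under 35, so the same limit applies to it. It passed for 0 of the 3 in limma, where 0.0197% of tested probe sets did, and 0 of 3 had an unadjusted p under 0.05 against 460 of all tested. The difference was 0.47 ± 0.40 for 143353_AT (SE, adjusted p = 0.995), 0.07 ± 0.53 for 148773_s_at (adjusted p = 0.998) and 0.38 ± 0.38 for 153848_AT (adjusted p = 0.995). The intervals reached from −0.38 to 1.32, from −1.07 to 1.20 and from −0.43 to 1.18. Single arrays set much of these values: without earlier control array 3 that of 153848_AT was 0.0029, and with 1 array left out that of 148773_s_at ran from −0.41 (without earlier X-ray array 3) to 0.40 (without earlier X-ray array 2).

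Apart from stage, 2 of the 3 probe sets varied between arrays of the same group more than most. The SD within groups of the earlier window was 0.69 on the log2 scale for 148773_s_at, 0.46 for 153848_AT and 0.20 for 143353_AT. Among 1872 tested probe sets with a mean between 200 and 1500 in that window, the median SD was 0.23. The SD of 148773_s_at lay at the 96.5th percentile of these, that of 153848_AT at the 90.3rd and that of 143353_AT at the 39.7th. For 148773_s_at the mean of the 2 earlier arrays was 553 for number 1, 599 for number 2 and 1217 for number 3, and for 153848_AT it was 946, 962 and 677. The 677 averages 449.7 on control array 3 with 903.9 on X-ray array 3. The spread of 153848_AT thus came mainly from control array 3 and was not shared by both arrays of that number.

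The 1 array control compared here also differed between array numbers in all 4 groups. The spike-in control BioB had intensities of 1376 to 1533 where the number was 1, of 425 to 738 where it was 2, and of 226 to 299 where it was 3. The brightest signal of each array, over all probe sets, was 20207 to 24796 for number 1, 22375 to 24755 for number 2 and 11073 to 12532 for number 3. Unlike BioB, it did not set numbers 1 and 2 apart. The part of the array number in the levels of 148773_s_at and 153848_AT was not tested. Without the 4 arrays numbered 3, the rule was met by the same 3 probe sets and 1 other. The 3 were chosen for meeting the limits on every array, so they had to stay, and nothing about the array number is read from this. Across the series, Spearman correlations between arrays over the tested probe sets were 0.816 to 0.945 within a window and 0.617 to 0.752 between windows, and no pair of arrays shared more than 0.523% of its values.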

How the data were processed

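The deposited table holds intensities of 14010 probe sets on 12 arrays, on a linear scale; neither the array software nor the normalization is given in the sources used here. The authors' values have trimmed means (2% off each end) equal to within 0.00230%, so no further normalization was applied. The 44 array controls were left out. Identifiers were looked up, ignoring case, among the synonyms of RefSeq genes (Release 6 plus ISO1 MT). This named 133 probe sets (131 genes) and left 13833 unnamed. No coordinates or sequences were used.

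Intensities were taken as log2(value + 13.3), which understates differences of weak probe sets. The 10139 probe sets above 29.9 on at least 3 arrays were tested in limma 3.58.1 (R 4.3.3; 4 group means, eBayes with a trend, 8 residual and 7.26 prior degrees of freedom, 2-sided, Benjamini-Hochberg over all tested, threshold 0.05). The code was tested on simulated data. Precision is limited by the number of arrays: 95% intervals had a median half-width of 0.725 on the log2 scale. Groups and replicate numbers came from the titles. In the earlier window, deviations of same-numbered control and X-ray arrays correlated at 0.130 to 0.421 across probe sets, each above 0.1. Those of differently numbered arrays correlated at −0.283 to 0.128, so the limit of 0.1 did not set the pairs apart. The arrays numbered 3 did stand apart. They correlated at 0.421 with each other and at −0.283 to −0.187 with those of other numbers, while numbers 1 and 2 correlated at 0.0695 and 0.128. The numbers were used as pairs in the differences within numbers and in the replicate block. The main fit, with its errors, intervals and p-values, left them unpaired. The limits, members and gene lists were chosen with earlier results of these data known. By rule, all members were named, with the probe sets nearest outside each limit. Alternatives covered normalization, pseudocount, filter, moderation, replicate block, limits and left-out arrays.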

Additional observations from a re-analysis of the deposited data

How the results depend on the processing

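No member passed in any X-ray comparison under any alternative run, an outcome that the rule fixed in part: 0 of 150 fits of a single member had an adjusted p under 0.05, and 137 kept the sign of the value reported. The replicate block also gave 0 of 3 in each comparison, with 143353_AT at an adjusted p of 0.885 at stages 13 to 15. In that window, deviations of same-numbered arrays correlated at 0.0998 to 0.435, not all above 0.1, and those of differently numbered arrays at −0.251 to 0.139. The 0.435 belonged to the arrays numbered 3, which correlated at −0.251 to −0.180 with those of other numbers. The median X-ray difference at stages 9 to 11 was 0.0567 to 0.275 when 1 array was left out (0.0567 without sensitive control array 3) and −0.11 without the 4 arrays numbered 3; it stayed within the spread between array numbers in the other settings. The rule gave 3 to 5 probe sets when 1 array was left out, 5 without resistant X-ray array 2, 7 with a lower limit of 50, and 1 with 25. It gave 9 on the control arrays alone, 7 on the X-ray arrays alone and 12 on group means. All 3 members were kept in 19 of 21 settings, the exceptions being an upper limit of 300 and a lower limit of 25. Most of that count was fixed in advance. Members chosen on all 12 arrays must stay when arrays are left out or averaged, or when a limit is loosened. Of the settings that could lose a member, only quantile normalization kept all 3. Signal close to background limits every value at stages 13 to 15, and no gene name or sequence was used for the members.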
